A study of Mus musculus with 12 samples.

Results

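The 10 genes described here encode receptors, signal carriers and inhibitors of transforming growth factor beta (TGF-beta) and bone morphogenetic protein (BMP) signalling: the receptors Bmpr1a and Bmpr1b, the SMAD genes Smad2, Smad3, Smad4 and Smad7, the ubiquitin ligases Smurf1 and Smurf2, and the corepressors Ski and Skil. They were taken by gene symbol from a table of 55336 genes, and each symbol matched 1 gene. A further 60 genes of the same pathways are given as counts.

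In this pathway a secreted ligand brings together receptor kinases at the cell surface, among them BMPR1A and BMPR1B for BMPs. The activated receptor phosphorylates carrier SMADs, SMAD2 and SMAD3 on the TGF-beta and activin branch, which join SMAD4 and enter the nucleus to regulate transcription. SMAD7 blocks the receptors, SMURF1 and SMURF2 attach ubiquitin to receptors and SMADs and so promote their degradation, and SKI and SKIL hold SMAD complexes in a repressive state. In the cortex these signals are known for roles in glial differentiation and in the growth and synapse formation of neurons.

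Nuclei came from cortices of 12 mice at postnatal day 21, of which 6 were wild type (WT) and 6 were heterozygous (Het) for the MYT1L S710fsX allele, with 3 males and 3 females in each genotype. MYT1L is a zinc finger transcription factor of neurons, and the allele is a germline frameshift, so every cell of a Het animal carried it. The mice had a C57BL/6 J background and came from WT by Het matings. Every animal, WT included, had received AAV9 particles with the calling cards constructs hyPB and H2b-tdT-SRT into the ventricles in the first days after birth, and all libraries were made from a part of the cDNA of fixed nuclei. The animals came from 4 litters, which the labels do not assign to animals. Each animal was 1 library, and the comparison of Het with WT asks how loss of 1 allele of Myt1l changes transcription in each cell type.

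After filtering, 33116 nuclei were left, with 1551 to 4414 nuclei and 5059340 to 14016469 unique molecular identifiers (UMIs, counted transcript molecules) per animal. No barcode was shared between libraries. Nuclei were put into classes by the UMIs of marker genes, and a class that met the naming criteria is called by its marker list with the suffix "-like". The 17 named classes held 20113 nuclei, 60.7% of the total, with IT, CT and NP standing for intratelencephalic, corticothalamic and near-projecting neurons of the cortical layers. In L6 CT-like nuclei the check genes Zfpm2 and Crym, which did not enter the gate, had pooled levels of 2083 and 64.5 CPM (UMI counts scaled to the same total in every sum of nuclei, the usual counts-per-million scale), against medians of 201 and 6.10 CPM over the other classes. In L5 NP-like nuclei the check gene Etv1 had 158 CPM against a median of 26.4 CPM, below its 205 CPM in oligodendrocyte precursor cell-like nuclei, and Stac, the other check gene, had 3.82 CPM against 2.91 CPM, so this name rests on the gate markers and 1 check gene. In L2/3 IT-like nuclei Calb1 (61.0 CPM), Wfs1 (8.52 CPM) and Lamp5 (61.1 CPM) were above their medians and each was higher in 1 other class or more, at up to 135, 39.2 and 135 CPM. In L6 IT-like nuclei Rxfp1 had 121 CPM against a median of 6.29 CPM, but Dkkl1 had 0.30 CPM and was higher in L4/5 IT-like nuclei (3.76 CPM), and 44.7% of these nuclei lay in graph clusters mostly of their own class. In dentate gyrus granule neuron-like nuclei Dock10 (853 CPM) and Glis3 (487 CPM) were above their medians but below their levels in oligodendrocyte-like (4896 CPM) and astrocyte-like nuclei (768 CPM). Astrocyte-like nuclei numbered 167, microglia-like nuclei 232 and leptomeningeal fibroblast-like nuclei 196, and levels in these classes rest on 8, 10 and 9 animals that had at least 10 nuclei each. Microglia-like nuclei held the excitatory marker list at 35.9% of its level in excitatory nuclei, compared with 2.06% in oligodendrocyte-like nuclei, and 569 CPM of Myt1l, compared with 16.4 CPM in oligodendrocyte-like nuclei. Striatal projection neuron-like nuclei held that list at 59.3% and Vip interneuron-like nuclei at 32.6%. The inhibitory marker list stood at 64.9% of its level in inhibitory nuclei in oligodendrocyte-like, 59.3% in oligodendrocyte precursor cell-like, 51.1% in newly formed oligodendrocyte-like and 29.1% in striatal projection neuron-like nuclei, and at 36.9% in Sst interneuron-like nuclei, below the 3 oligodendrocyte lineage classes. The part of transcripts of other cell types in the levels of any of these classes was not tested.

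Levels are given as CPM of the counts summed over an animal's nuclei of a class, so they compare classes for 1 gene and not genes with each other. Myt1l itself, the mutated gene, had 1132, 1189 and 1321 CPM (lowest, median and highest) in L6 CT-like nuclei of WT animals and 1325, 1425 and 1563 CPM in Het animals. All Het animals lay above all WT animals, a pattern that 0.678% of the genes tested in this class showed in the same direction, and the log2 fold change was 0.21 (SE 0.064, adjusted p = 0.112, edgeR). Reads of the frameshift allele are counted as Myt1l, so this level does not check the genotype.

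The promoters of Smurf1, Smad3 and Ski are shown because these 3 members had the smallest p-values for Het against WT in excitatory nuclei. The letters AAGTT, which MYT1L is known to bind, and CAGAC, a SMAD binding motif, were searched on both strands (AACTT and GTCTG as reverse complements; neither motif contains the other), and matches are in capitals. Each sequence runs 5′ to 3′ on the minus strand, ends at the base before the first annotated transcript start, and comes from RefSeq, GRCm38.p6.
Smurf1, chr5:144965848-144966080: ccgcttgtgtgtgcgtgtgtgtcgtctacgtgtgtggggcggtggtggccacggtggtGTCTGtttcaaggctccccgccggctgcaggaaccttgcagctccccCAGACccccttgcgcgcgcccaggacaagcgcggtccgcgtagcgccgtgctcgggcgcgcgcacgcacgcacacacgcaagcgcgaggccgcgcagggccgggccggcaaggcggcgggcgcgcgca
Smad3, chr9:63757995-63758244: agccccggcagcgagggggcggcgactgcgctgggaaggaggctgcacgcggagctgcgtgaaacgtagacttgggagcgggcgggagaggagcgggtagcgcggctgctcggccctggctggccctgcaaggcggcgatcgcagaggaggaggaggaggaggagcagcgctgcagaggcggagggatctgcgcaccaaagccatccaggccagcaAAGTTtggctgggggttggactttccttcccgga
Ski, chr4:155222593-155222785: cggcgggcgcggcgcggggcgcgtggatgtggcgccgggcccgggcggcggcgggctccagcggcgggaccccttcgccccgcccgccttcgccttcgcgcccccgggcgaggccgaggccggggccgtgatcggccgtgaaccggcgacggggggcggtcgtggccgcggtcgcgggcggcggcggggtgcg
The Smurf1 stretch of 233 bases held 2 matches to CAGAC and none to AAGTT, that of Smad3 (250 bases) 1 match to AAGTT and none to CAGAC, and that of Ski (193 bases) neither. Promoter entries were at hand for 6 members in 8 windows of 250 bases, of which 1 (Smad3) held AAGTT and 4 (those of Smurf1, Smurf2 and Bmpr1b) held CAGAC. Of all 32851 promoter windows of this length, 35.3% held AAGTT and 42.2% held CAGAC. A match describes letters in a window and not a bound site.

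All 10 genes lie on autosomes, at positions given here from GENCODE vM21 on mm10. Smurf1 spans chr5:144876495-144965847 and Smurf2 chr11:106820066-106920715, both on the minus strand. Ski spans chr4:155154075-155222592 (minus) and Skil chr3:31095058-31122577 (plus). Smad3 spans chr9:63646767-63757994 (minus), and the other SMAD genes lie on chromosome 18, Smad2 at chr18:76241580-76310963 (plus), Smad4 at chr18:73639009-73703780 (minus) and Smad7 at chr18:75367529-75395935 (plus). Bmpr1a spans chr14:34410734-34503341 and Bmpr1b chr3:141837136-142169425, both on the minus strand. Members are overlapped by 4 other annotated genes, namely Mir7039 in Smurf1 and Gm27322 in Smurf2 on the same strand, and AC132418.2 in Smad4 and Gm17110 in Bmpr1a on the opposite strand, so a small share of those counts could belong to the overlapping gene.

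To see where the pathway's parts were transcribed, the level of each member was compared across the 17 classes within animals. The class with the highest mean was compared with each other class, and neighbours in the order of means with each other, by an exact two-sided sign-flip permutation test of log2(CPM + 1) differences within animals with Benjamini-Hochberg adjustment. The spread of means over the 17 classes was widest for Bmpr1b (2.18 to 730 CPM) and Smad7 (3.52 to 165 CPM), and Smurf2 ranged from 93.9 to 259 CPM.

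**Figure D1:**
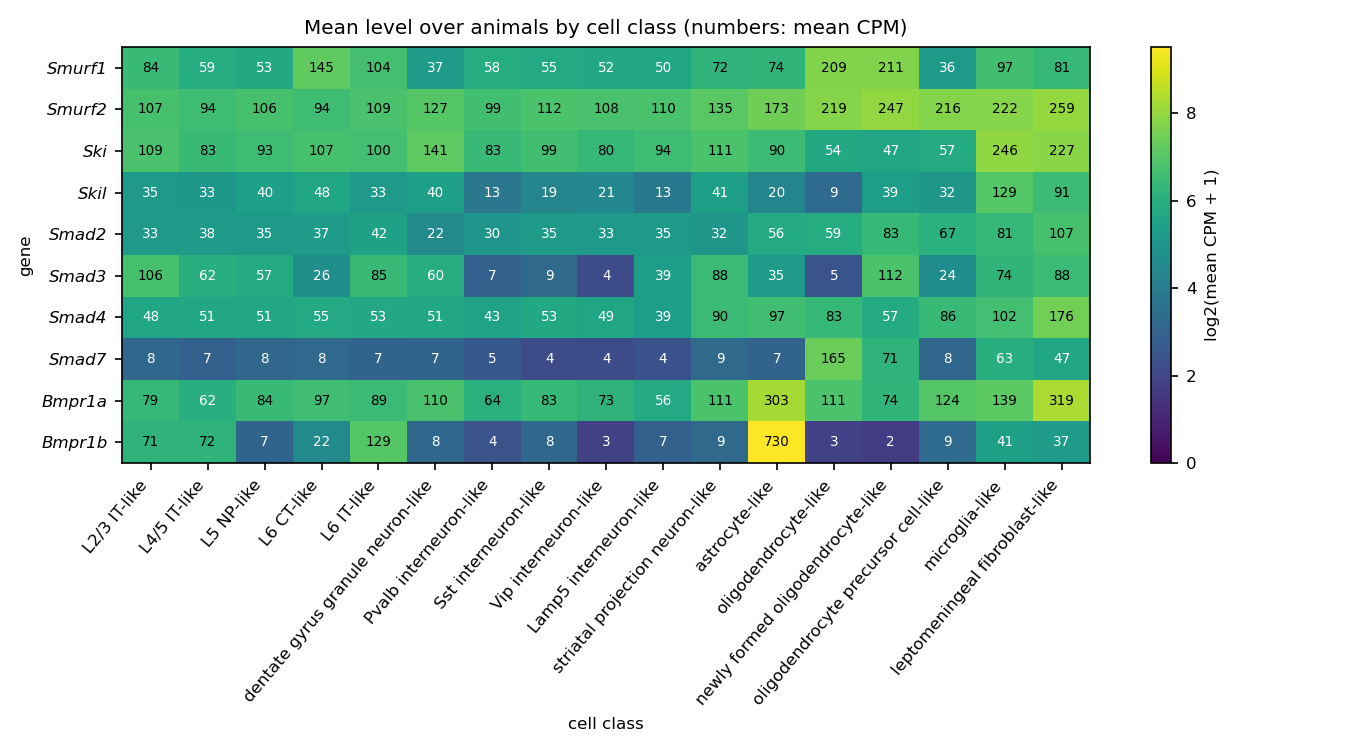
Mean level of each member (rows) in each of the 17 cell classes (columns), with the mean CPM over animals printed in each cell and the colour showing log2(mean CPM + 1), to be read along a row. Bmpr1b stands out in astrocyte-like nuclei at 730 CPM and Smad7 in oligodendrocyte-like nuclei at 165 CPM, while Smurf2 lies between 93.9 and 259 CPM in every class.

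Among the receptors, Bmpr1b was concentrated in astrocyte-like nuclei. Its level there was 522 CPM in the lowest animal and 934 CPM in the highest, with a mean of 730 ± 150 CPM (SD, n = 8). The next class, L6 IT-like, had 129 ± 42.8 CPM (SD, n = 12), and astrocyte-like nuclei were above it in 8 of 8 animals. Astrocyte-like nuclei exceeded all 16 other classes (adjusted p = 0.010 to 0.0182, exact sign-flip permutation test, the largest for pairs with 7 animals). Among neurons Bmpr1b was graded by type: it had 129 CPM in L6 IT-like, 71.6 ± 14.9 CPM in L4/5 IT-like and 71.4 ± 28.6 CPM in L2/3 IT-like nuclei, 22.1 ± 7.14 CPM in L6 CT-like and 7.44 ± 5.30 CPM in L5 NP-like nuclei (SD, n = 12). Interneuron-like classes had between 2.65 and 8.15 CPM on average, and the 3 classes of the oligodendrocyte lineage between 2.18 and 8.96 CPM. The levels in L4/5 IT-like and L2/3 IT-like nuclei, neighbours in this order, were not separated by the test (higher in L4/5 IT-like nuclei in 8 of 12 animals, adjusted p = 0.976, exact sign-flip permutation test). The step from L6 IT-like to L4/5 IT-like nuclei did not pass the test of neighbours either.

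Bmpr1a, the broader receptor, was highest in leptomeningeal fibroblast-like nuclei (319 ± 129 CPM, SD, n = 9) and astrocyte-like nuclei (303 ± 69.0 CPM, SD, n = 8), which the test did not separate (adjusted p = 0.759, exact sign-flip permutation test over 7 animals). Fibroblast-like nuclei exceeded the other 15 classes. Neurons had between 55.8 CPM (Lamp5 interneuron-like) and 111 CPM (striatal projection neuron-like). Astrocyte-like nuclei were first for Bmpr1b and second for Bmpr1a among the 17 classes.

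The carrier Smad3 and its partner Smad2 differed in how evenly they were spread over classes. Smad3 had 112 ± 38.5 CPM in newly formed oligodendrocyte-like nuclei, 106 ± 31.3 CPM in L2/3 IT-like, 88.4 ± 27.1 CPM in striatal projection neuron-like and 85.3 ± 23.4 CPM in L6 IT-like nuclei (SD, n = 12), and the first of these was not separated from the other 3 by the test. L6 CT-like nuclei had 25.8 ± 8.85 CPM, the lowest of the excitatory classes. Sst, Pvalb and Vip interneuron-like nuclei had 8.87, 6.61 and 3.63 CPM, whereas Lamp5 interneuron-like nuclei had 39.0 ± 18.0 CPM. Oligodendrocyte-like nuclei had 4.55 ± 3.28 CPM, far under the newly formed oligodendrocyte-like nuclei, which exceeded 11 of 16 classes in all.

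Smad2 ranged from 21.7 CPM (dentate gyrus granule neuron-like) to 42.2 CPM (L6 IT-like) among neurons, and was highest in leptomeningeal fibroblast-like nuclei at 107 ± 60.1 CPM (SD, n = 9). That class exceeded 11 of the 16 others. Smad4, the partner of all carrier SMADs, was likewise highest in fibroblast-like nuclei (176 ± 72.7 CPM, SD, n = 9), above 15 of 16 classes with microglia-like nuclei (102 ± 38.4 CPM, SD, n = 10) as the exception, and its neuron classes lay between 39.5 and 89.7 CPM.

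Smad7, the inhibitory SMAD, was concentrated in oligodendrocyte-like nuclei. Oligodendrocyte-like nuclei had 78.7 CPM in the lowest animal and 208 CPM in the highest, with a mean of 165 ± 36.0 CPM (SD, n = 12). Newly formed oligodendrocyte-like nuclei had 71.2 ± 38.0 CPM, lower in 12 of 12 animals by 1.43 on the log2 scale (adjusted p = 0.0391 over all neighbouring classes of all members, exact sign-flip permutation test), and oligodendrocyte precursor cell-like nuclei had 7.87 ± 9.51 CPM. This is 1 of 2 pairs of neighbours in the order of levels, of 160 pairs over all members, that passed the test. Both had an unadjusted p of 0.000488, the smallest that the sign-flip test can give with 12 animals. A single pair at that p could not pass over 160 pairs, so neighbours that did not pass are not shown to be alike. Neuron classes had 3.52 to 8.71 CPM, and oligodendrocyte-like nuclei exceeded all 16 other classes. Microglia-like nuclei had 62.7 ± 23.9 CPM (SD, n = 10) and fibroblast-like nuclei 47.4 ± 27.0 CPM (SD, n = 9), from 42.5 and 23 UMIs in all.

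Smurf1 had its highest levels in the same lineage. Newly formed oligodendrocyte-like nuclei had 211 ± 73.2 CPM and oligodendrocyte-like nuclei 209 ± 31.8 CPM (SD, n = 12), which the test did not separate (adjusted p = 0.792, exact sign-flip permutation test), while oligodendrocyte precursor cell-like nuclei had 35.6 ± 16.9 CPM, the lowest mean of all classes. The second part of its pattern was in L6 CT-like nuclei at 145 ± 26.6 CPM and L6 IT-like nuclei at 104 ± 20.8 CPM. L6 CT-like nuclei were above L6 IT-like nuclei in 12 of 12 animals, by 0.49 on the log2 scale (adjusted p = 0.0391 over all neighbours, exact sign-flip permutation test). The other neuron classes lay between 37.4 CPM (dentate gyrus granule neuron-like) and 83.9 CPM (L2/3 IT-like). Among them L5 NP-like nuclei, also of a deep layer, had a mean of 53.4 CPM, below L4/5 IT-like nuclei at 58.7 CPM.

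Smurf2, the paralogue of Smurf1, was more even. Fibroblast-like (259 ± 73.5 CPM, SD, n = 9), newly formed oligodendrocyte-like (247 ± 54.3 CPM), microglia-like (222 ± 53.6 CPM, n = 10), oligodendrocyte-like (219 ± 40.1 CPM) and oligodendrocyte precursor cell-like nuclei (216 ± 69.8 CPM, n = 12 for the oligodendrocyte lineage) led, and the test did not separate the first from the other 4. Neuron classes had 93.9 to 135 CPM. The mean of oligodendrocyte precursor cell-like nuclei lay above that of all neuron classes for Smurf2 and below that of all of them for Smurf1, where the test did not separate it from the next class, dentate gyrus granule neuron-like (lower in 6 of 12 animals, adjusted p = 0.976, exact sign-flip permutation test).

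The corepressors shared their leading classes. Ski had 246 ± 83.0 CPM in microglia-like nuclei (SD, n = 10) and 227 ± 83.6 CPM in fibroblast-like nuclei (SD, n = 9), which the test did not separate (adjusted p = 0.883, exact sign-flip permutation test), followed by dentate gyrus granule neuron-like nuclei at 141 ± 40.1 CPM (SD, n = 12). Microglia-like nuclei exceeded the other 15 classes. The 3 oligodendrocyte lineage classes were lowest, at 47.0 to 56.6 CPM. Skil had 129 ± 57.9 CPM in microglia-like and 91.3 ± 36.9 CPM in fibroblast-like nuclei, and among neurons it was highest in L6 CT-like nuclei at 47.9 ± 11.8 CPM. It was low in oligodendrocyte-like nuclei (9.11 ± 7.66 CPM) and in Pvalb (12.7 ± 7.23 CPM) and Lamp5 (13.3 ± 4.52 CPM) interneuron-like nuclei (SD, n = 12).

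Each member was tested between Het and WT in every class with enough counts (edgeR quasi-likelihood test over all genes of the class, Benjamini-Hochberg adjustment, called where the adjusted p was under 0.05 and the log2 fold change was beyond 0.2 in either direction). Of 98 pairs of a member and a class tested, 1 was called, Smurf1 in L6 CT-like nuclei, where 0.135% of all pairs of a gene and a class were called. DESeq2 also called 1 pair, where it called 0.0544% of the 275734 pairs to which it gave an adjusted p. That set differs from the one edgeR tested, so the called shares of the tools are not comparable. At an unadjusted p under 0.05 were 15 pairs (15.3%), 12 higher and 3 lower in Het, where 6.49% of all pairs reached that level. DESeq2 gave 8 of the same 98 pairs such a p (8.16%), 7 higher and 1 lower in Het, where 4.02% of all pairs reached it. The members were chosen with earlier results of these data known, so these shares are not independent support for a difference. The median log2 fold change of the 98 pairs was 0.07, and 61 were positive. All members passed the filter on low counts in at least 1 class, from 16 classes for Smurf2 and Bmpr1a to 1 class for Smad7.

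Smurf1 rose in L6 CT-like nuclei of Het animals. The WT animals had 104, 125 and 155 CPM (lowest, median and highest) and the Het animals 152, 166 and 186 CPM, with means of 125 ± 19.2 and 166 ± 13.0 CPM (SD, n = 6 each) from 79.5 to 286 UMIs per animal. Of the 6 Het animals, 4 lay above all WT animals, and the other two were below the highest WT animal, a female. The log2 fold change was 0.39 (SE 0.096, adjusted p = 0.0381, edgeR), and 0.791% of the 7966 genes tested in this class were called. DESeq2 gave 0.40 (adjusted p = 0.0107). Of the 9 members tested in this class, 3 had an unadjusted p under 0.05, all higher in Het, where 10.2% of the genes tested there reached that level. The call was lost with a stricter marker gate (log2 fold change 0.35, adjusted p = 0.0716) and without any 1 of 8 animals, with an adjusted p of 0.0847 without WT male replicate 2, 0.122 without WT male replicate 3, 0.0540 without WT female replicate 2, 0.123 without WT female replicate 3, 0.0586 without Het male replicate 1, 0.0798 without Het male replicate 3, 0.0951 without Het female replicate 1 and 0.106 without Het female replicate 3, while the fold change stayed between 0.34 and 0.41.

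Several other measures of L6 CT-like nuclei stood beside this difference. The median UMIs per nucleus were 3237 ± 172 in WT and 3426 ± 142 in Het animals (SD, n = 6 each), and these nuclei made up 11.0% ± 1.43 of a WT animal's nuclei and 11.4% ± 0.864 of a Het animal's. The summed level of the 5 L6 CT markers was 8319 ± 234 CPM in WT and 8326 ± 424 CPM in Het animals, whereas the 5 L5 ET (extratelencephalic) markers summed to 139 to 180 CPM in WT and 174 to 217 CPM in Het animals and the 6 L5 NP markers to 33.1 to 62.2 CPM and 53.9 to 85.7 CPM, with no marker of these lists at 0. TdTomato transcripts of the AAV were at 259 ± 125 and 247 ± 57.4 CPM. The part of any of these in the Smurf1 difference was not tested.

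**Figure D2:**
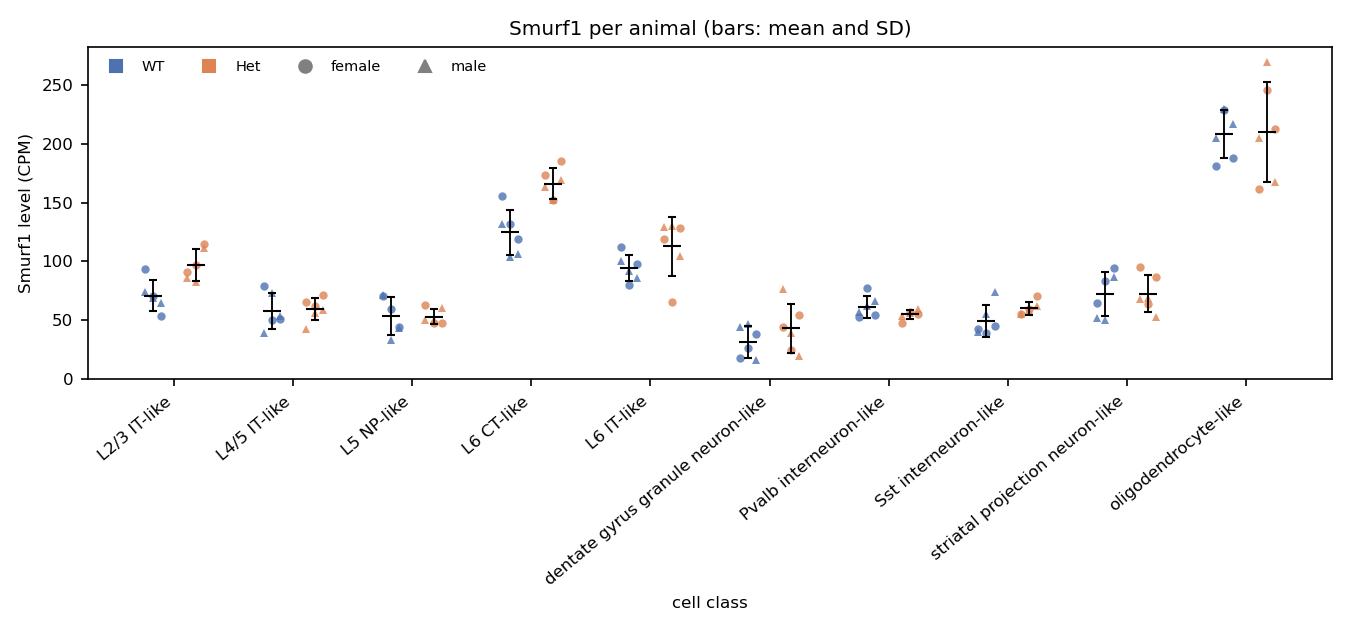
Smurf1 level (CPM, y axis) in each animal for 10 cell classes (x axis), with WT in blue, Het in orange, females as circles, males as triangles, and black bars for the mean and SD of 6 animals. In L6 CT-like nuclei the Het animals sit between 152 and 186 CPM and the WT animals between 104 and 155 CPM, and in L5 NP-like and Pvalb interneuron-like nuclei the ranges of the genotypes overlap.

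In the other classes Smurf1 was not called. L2/3 IT-like nuclei had 53.3, 69.9 and 93.8 CPM in WT and 82.2, 93.8 and 115 CPM in Het animals, with a log2 fold change of 0.48 (SE 0.15, adjusted p = 0.287, edgeR) and 3 Het animals above all WT animals. In L5 NP-like nuclei the means were 53.5 ± 15.9 and 53.2 ± 6.68 CPM (log2 fold change 0.03), in oligodendrocyte-like nuclei 208 ± 20.5 and 210 ± 42.4 CPM (−0.03). Pvalb interneuron-like nuclei had medians of 59.3 CPM in WT and 55.7 CPM in Het animals (−0.20). Over the 12 classes tested, 7 had a positive log2 fold change. Whether the L6 CT difference was larger than that of another class was tested within animals, by an exact two-sided permutation test over all relabellings of the animals. The Het effect on log2(CPM + 1) of Smurf1 was larger in L6 CT-like nuclei by 0.57 than in Pvalb interneuron-like nuclei (exact p = 0.00866), by 0.44 than in Lamp5 interneuron-like (exact p = 0.0108) and by 0.38 than in L5 NP-like nuclei (exact p = 0.0152), and smaller by 0.04 than in L2/3 IT-like nuclei (exact p = 0.740). Over all members and class pairs 541 such differences were tested, of which 48 had an unadjusted p under 0.05. None passed the Benjamini-Hochberg adjustment (smallest adjusted p = 0.429). With 12 animals the smallest p this permutation test can give is 0.00216, so no single pair could pass among 541. The adjusted test therefore cannot decide the question, and the Smurf1 difference is not shown to be particular to L6 CT-like nuclei.

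In all excitatory nuclei as 1 group, 0 of the 10 members were called by edgeR, where 0.111% of all genes were. DESeq2 called Smurf1 and Smad3, where it called 0.945% of the 7304 genes to which it gave an adjusted p. At an unadjusted p under 0.05 were 4 members (Smurf1, Smad3, Ski and Skil), all higher in Het, where 7.71% of all genes reached that level. Smurf1 had 68.5, 76.8 and 91.9 CPM in WT animals and 90.4, 93.9 and 99.4 CPM in Het animals. Of the Het animals, 4 lay above all WT animals. Its log2 fold change was 0.27 (SE 0.065, adjusted p = 0.131, edgeR) and 0.27 by DESeq2 (adjusted p = 0.0175). Without WT female replicate 1, the WT animal with the highest Smurf1 level in L6 CT-like nuclei, edgeR gave 0.31 (adjusted p = 0.0324). The fold change rose with this WT animal left out, so that value is not added support.

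**Figure D3:**
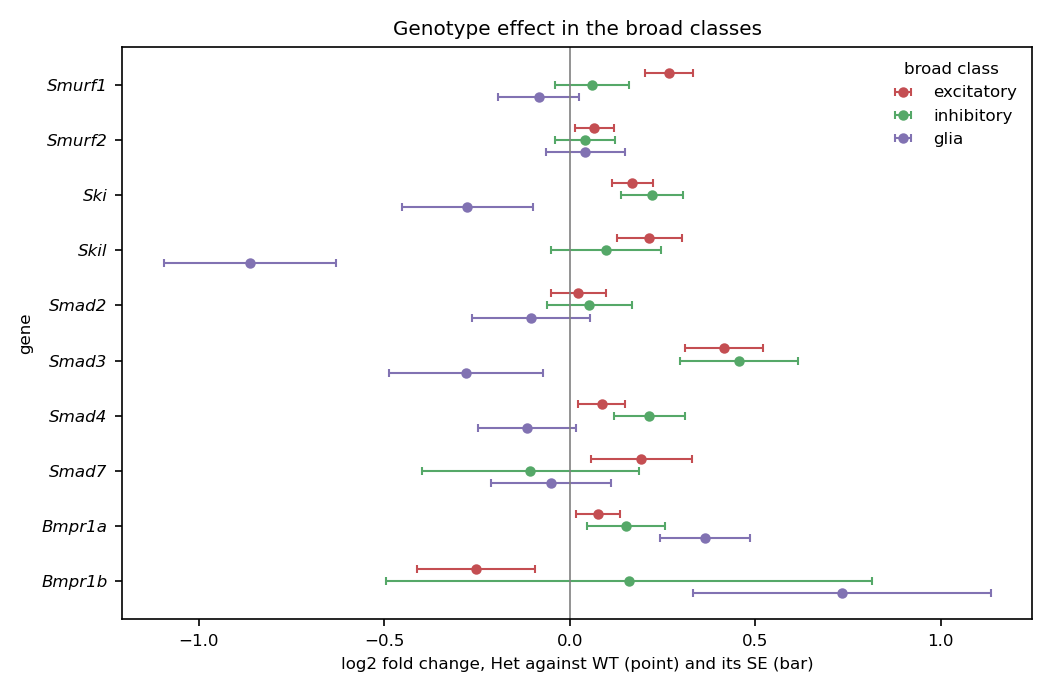
Log2 fold change of Het against WT (x axis; points) with its SE (bars) for the 10 members (y axis) in all excitatory, all inhibitory and all glial nuclei, from edgeR fits over 12 animals. Smad3 (0.42) and Smurf1 (0.27) lie to the right of 0 in excitatory nuclei, Bmpr1a (0.36) to the right and Skil (−0.86) to the left of 0 in glial nuclei, and none of the 30 values was called.

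Smad3 had the largest excitatory difference of the members. WT animals had 40.2, 56.0 and 68.5 CPM and Het animals 63.3, 74.8 and 83.8 CPM, with means of 55.2 ± 9.91 and 74.4 ± 6.72 CPM (SD, n = 6 each). Of the 6 Het animals, 5 were above all WT animals. The log2 fold change was 0.42 (SE 0.11, unadjusted p = 0.00105, adjusted p = 0.167, edgeR), and it was 0.41 with an adjusted p of 0.0296 by DESeq2. By class the log2 fold change was positive in 8 of the 9 classes tested, with newly formed oligodendrocyte-like nuclei as the exception (−0.50, adjusted p = 0.893, edgeR).

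The Smad3 difference was spread over several classes, none of them called. In L6 CT-like nuclei WT animals had 10.3, 19.7 and 34.0 CPM and Het animals 24.3, 32.0 and 36.6 CPM, from 8.5 to 51.5 UMIs per animal. The ranges overlapped, with 1 Het animal above all WT animals, and the log2 fold change was 0.71 (SE 0.20, adjusted p = 0.0876, edgeR). Without WT male replicate 1 it was 0.87 (adjusted p = 0.0343), which is past the threshold but, with a WT animal left out that raised it, not added support. L5 NP-like nuclei had 43.0 ± 9.33 CPM in WT and 70.0 ± 21.8 CPM in Het animals (log2 fold change 0.61, SE 0.18, adjusted p = 0.368), dentate gyrus granule neuron-like nuclei 43.8 ± 17.3 and 76.0 ± 22.8 CPM (0.73, SE 0.27, adjusted p = 0.321), and L4/5 IT-like nuclei 53.3 ± 16.9 and 70.9 ± 12.8 CPM (0.44, SE 0.17, unadjusted p = 0.0147; SD, n = 6 each, edgeR). In striatal projection neuron-like nuclei, a class with a high Smad3 level, the means were 86.1 ± 36.3 and 90.6 ± 17.1 CPM, with a log2 fold change of 0.00.

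**Figure D4:**
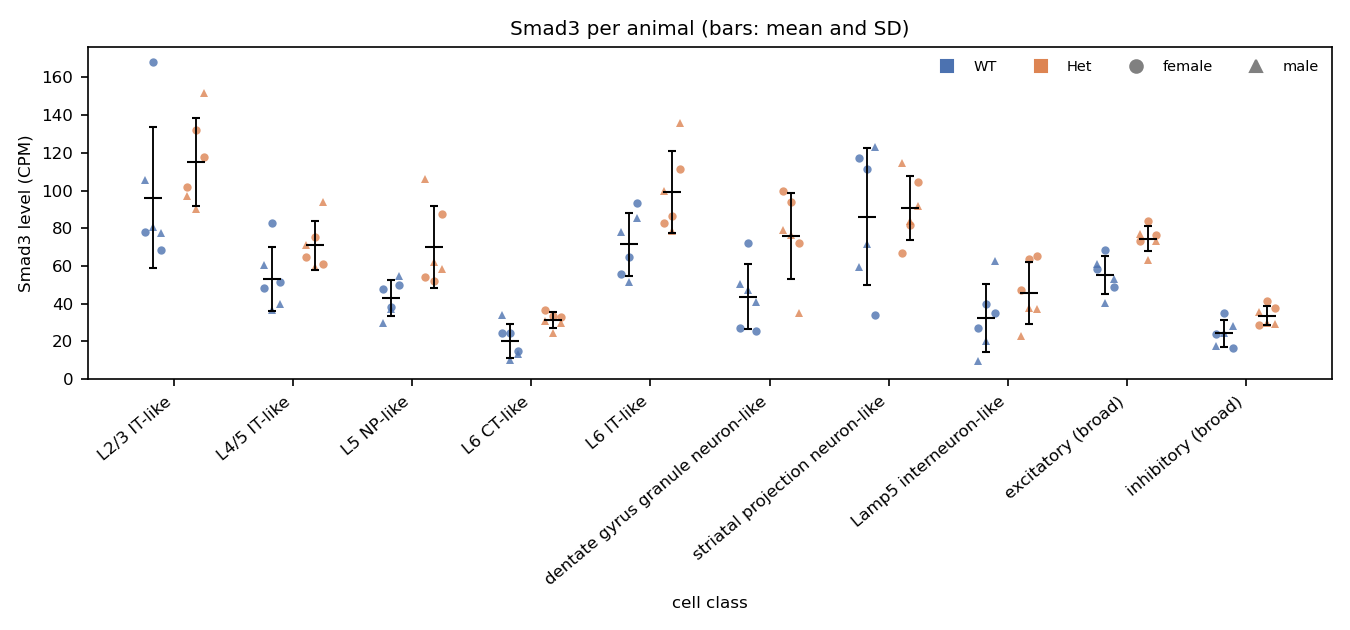
Smad3 level (CPM, y axis) in each animal for 8 cell classes and for all excitatory and all inhibitory nuclei (x axis), with WT in blue, Het in orange, females as circles, males as triangles, and black bars for the mean and SD of 6 animals. In excitatory nuclei the Het animals lie between 63.3 and 83.8 CPM and the WT animals between 40.2 and 68.5 CPM, and the genotypes overlap in every class drawn.

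The other carrier SMADs had smaller differences in excitatory nuclei. Smad2 had 36.1 ± 3.38 CPM in WT and 37.0 ± 2.39 CPM in Het excitatory nuclei (SD, n = 6 each). Smad4 had 48.2, 52.1 and 62.3 CPM in WT and 56.1, 56.7 and 59.4 CPM in Het excitatory nuclei, so the Het range lay inside the WT range. Their log2 fold changes were 0.02 and 0.09 (SE 0.074 and 0.063, adjusted p = 0.978 and 0.808, edgeR). Smad4 in leptomeningeal fibroblast-like nuclei was 236, 239 and 293 CPM in the 3 WT animals and 85.8 to 200 CPM (median 136) in the 6 Het animals, without overlap, a pattern that 0.775% of genes tested there showed in the same direction. This rests on 85 UMIs in all (log2 fold change −0.82, SE 0.34, adjusted p = 0.998, edgeR). Smad7, tested by class only in oligodendrocyte-like nuclei, had 160 ± 41.9 CPM in WT and 170 ± 32.2 CPM in Het animals (log2 fold change −0.02, SE 0.16, adjusted p = 1.00).

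Ski, the corepressor, had its smallest p-value by class in L5 NP-like nuclei. WT animals had 67.5, 80.1 and 85.9 CPM and Het animals 92.3, 109 and 115 CPM, from 31 to 113 UMIs per animal. No Het animal overlapped with a WT animal. This was 1 of 89 pairs of a member and a class with all 12 animals whose Het animals were all higher, and 0 were all lower, where 0.316% and 0.128% of all pairs were; in L5 NP-like nuclei alone 0.185% of genes were higher without overlap. The log2 fold change was 0.42 (SE 0.11, unadjusted p = 0.000696), which did not pass adjustment (adjusted p = 0.262, edgeR). Ski had a positive log2 fold change in 12 of 14 classes tested, among them L2/3 IT-like (0.31, adjusted p = 0.521), Pvalb interneuron-like (0.32, adjusted p = 0.797) and L6 CT-like nuclei (0.22, adjusted p = 0.456), none of which was called. Its highest log2 fold change was 0.79 (SE 0.35, adjusted p = 0.998), in leptomeningeal fibroblast-like nuclei, from 103 UMIs in all, where the 3 WT animals had 103, 118 and 220 CPM and the 6 Het animals 215 to 380 CPM. In all excitatory nuclei it was 0.17 (SE 0.054, adjusted p = 0.332) and in all inhibitory nuclei 0.22 (SE 0.083, adjusted p = 0.607).

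Skil, the paralogue of Ski, had a positive log2 fold change in excitatory and a negative one in glial nuclei, a difference that was not tested. Such a change of sign was not particular to Skil, since 9 of the 10 members were positive in excitatory and 3 in glial nuclei. In excitatory nuclei it was 35.6 ± 5.23 CPM in WT and 42.1 ± 2.57 CPM in Het animals (log2 fold change 0.21, SE 0.088, adjusted p = 0.514, edgeR). In glial nuclei it was 22.7, 45.6 and 61.8 CPM in WT and 14.3, 22.8 and 32.0 CPM in Het animals, with overlapping ranges, from 7 to 32 UMIs per animal. The glial log2 fold change was −0.86 (SE 0.23, unadjusted p = 0.00115, adjusted p = 1.00, edgeR). Among glial classes Skil was highest in microglia-like nuclei, and the 7 microglial markers summed to 410 to 1124 CPM in glial nuclei of WT and 219 to 1062 CPM in those of Het animals, with none of them at 0. The part of this mix in the Skil difference was not tested.

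Bmpr1a, in contrast, was higher in glial nuclei of Het animals. WT animals had 88.6, 95.1 and 125 CPM and Het animals 125, 134 and 149 CPM, and the highest WT animal lay just below the lowest Het animal. In glial nuclei 0.112% of genes were higher in Het without overlap. The log2 fold change was 0.36 (SE 0.12, unadjusted p = 0.00666, adjusted p = 1.00, edgeR). The 8 astrocyte markers, of the class in which Bmpr1a is near its highest level, summed to 2237 to 3768 CPM in WT and 2598 to 5086 CPM in Het glial nuclei, with none at 0, and the part of this in the difference was not tested. Within oligodendrocyte precursor cell-like nuclei the log2 fold change of Bmpr1a was 0.68 (SE 0.26, adjusted p = 0.943) and within oligodendrocyte-like nuclei 0.16 (SE 0.17, adjusted p = 1.00). Within astrocyte-like nuclei Bmpr1a and Bmpr1b were the 2 members tested, and neither was called. Their median log2 fold change was 0.33 and that of Bmpr1b was 0.12, so Bmpr1a was the higher of them.

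Of all members in glial nuclei 0 were called by edgeR, as were 0% of all genes. DESeq2 called 0 as well (0.00356% of the 28106 genes to which it gave an adjusted p). By edgeR 2 members were at an unadjusted p under 0.05, where 3.69% of all genes were. In inhibitory nuclei the edgeR count was 0 as well (0.194% of all genes), also 0 by DESeq2 (0.44% of 10227 genes with its adjusted p). By edgeR 3 members, Smad3, Ski and Smad4, were under 0.05 unadjusted (6.08% of all genes), each higher in Het. In all nuclei together 0 members were called by either tool (0% of all genes by edgeR and 0.235% of 13184 genes by DESeq2). By edgeR 4 were under 0.05 unadjusted (5.96% of all genes): Smurf1, Smad3, Ski and Bmpr1a. Smad3 in inhibitory nuclei was 24.3 ± 6.95 CPM in WT and 33.7 ± 5.28 CPM in Het animals (log2 fold change 0.46, SE 0.16, adjusted p = 0.505, edgeR).

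Bmpr1b had negative log2 fold changes in the 4 neuron classes tested, none of them called, with −0.24 (adjusted p = 0.793) in L6 CT-like and −0.01 (adjusted p = 0.999) in L6 IT-like nuclei (edgeR). In upper layers Smad2 (−0.13) and Bmpr1a (−0.15) were negative as well in L2/3 IT-like and Smad4 (−0.11) in L4/5 IT-like nuclei. These signs each concern 1 upper class and are not a lowering in both. The Het effect on log2(CPM + 1) in L2/3 IT-like minus that in L4/5 IT-like nuclei was −0.32 for Smad2, −0.19 for Bmpr1a and 0.35 for Smad4. None of these differences passed adjustment (exact permutation test). For Bmpr1b, L2/3 IT-like nuclei had 41.2, 79.8 and 120 CPM in WT and 33.5, 55.9 and 102 CPM in Het animals, with wide overlap (log2 fold change −0.59, SE 0.22, adjusted p = 0.435, edgeR). L4/5 IT-like nuclei had 77.9 ± 18.7 and 65.2 ± 6.49 CPM (SD, n = 6 each; −0.34, SE 0.15, adjusted p = 0.669), and with classes taken from graph clusters this became −0.87 (adjusted p = 0.00454), which is past the threshold. In astrocyte-like nuclei, its main class, the means were 682 ± 164 CPM (n = 3) and 760 ± 152 CPM (n = 5), a log2 fold change of 0.12 (SE 0.26, adjusted p = 0.998). Smurf2 did not reach an unadjusted p under 0.05 in any of 16 classes, and its log2 fold changes lay between −0.16 and 0.22.

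The Het effect was also compared between the sexes, with 3 animals per sex and genotype. Of 92 pairs of a member and a class, 0 had an interaction called by edgeR (0.0124% of all pairs of a gene and a class), and 3 had an unadjusted p under 0.05 (5.06% of all pairs). These were Bmpr1a in Lamp5 interneuron-like nuclei (Het effect in males minus that in females −1.62 on the log2 scale, SE 0.48, adjusted p = 0.851), Bmpr1b in L6 CT-like nuclei (−0.94, SE 0.41, adjusted p = 0.941) and Smurf2 in newly formed oligodendrocyte-like nuclei (−0.93, SE 0.40, adjusted p = 0.872). In the broad classes 0 interactions were called. By edgeR an unadjusted p under 0.05 was reached by 2 of 10 members in inhibitory nuclei, Bmpr1a (−0.52) and Bmpr1b (−2.86). Bmpr1b also reached it in excitatory nuclei (−0.59) and all nuclei (−0.70), and 0 members did in glial nuclei. The share over all genes is not given here for these. For Smurf1 in L6 CT-like nuclei the log2 fold change was 0.48 in males and 0.33 in females, and the interaction was 0.16 (SE 0.19, adjusted p = 1.00). For Smad3 in excitatory nuclei both sexes had 0.41.

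Of the 60 other genes of the pathways none was called in any class in either direction by edgeR, nor by DESeq2. In excitatory nuclei 36 of the 60 had enough counts, of which 4 had an unadjusted p under 0.05, 2 higher and 2 lower in Het, where 7.71% of all genes did, and their median log2 fold change was 0.03 against −0.0045 over all genes. Among corepressors, which sit with SKI on SMAD complexes, Hdac1 had a log2 fold change of 0.15 (adjusted p = 0.835). Of the ubiquitin ligases, Wwp1 had −0.14 (adjusted p = 0.487) and Trim33 −0.05 (adjusted p = 0.865). Of the receptors, Acvr1b, an activin receptor, had 0.15 (unadjusted p = 0.0457) and Tgfbr2 0.35 (adjusted p = 0.678), and of the ligands Bmp6 had 0.21 (adjusted p = 0.856) and Inhba 0.15 (adjusted p = 0.877). Of the BMP antagonists Grem1 had 0.16 (adjusted p = 0.937). Of the further SMAD genes Smad9 had −0.20 (adjusted p = 0.883) and Smad5 0.07 (adjusted p = 0.954), and of the target genes Id2 had −0.46 (adjusted p = 0.522) and Ccn2 0.49 (adjusted p = 0.740; edgeR throughout). Ligands and target genes were thin in these nuclei, with 5 of 15 ligands and 4 of 9 targets having enough counts to be tested.

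The genes whose mean level followed each member most closely over the 17 classes were listed among 9058 genes by Pearson's r of log2(CPM + 1), as a description over classes that share animals and depth. For Smad7 they were Abl1 (0.95) and Rbpj (0.95), for Smurf1 Dip2b (0.86) and Dbndd2 (0.85), and for Bmpr1b Poln and Cmya5 (0.88 each). Smurf2 followed Hnrnpk (0.98) and Nipbl (0.97), Bmpr1a Tank and Sdc4 (0.94 each), Smad2 Rab1a (0.93) and Pld1 (0.92), and Smad4 Elk4 and Gm42715 (0.91 each). For Ski they were Smg1 (0.91) and Ubp1 (0.90), for Skil Gm47283 (0.88) and Ppp3cb (0.86), and for Smad3 Slc24a4 (0.81) and Mdga1 (0.80). Between members, r was 0.89 for Smad4 and Bmpr1a and 0.87 for Smurf2 and Smad2, but 0.37 for Smurf1 and Smurf2, and it was 0.69 for Ski and Skil and 0.51 for Bmpr1a and Bmpr1b.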

How the data were processed

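Nuclei were isolated by the authors from cortex by Dounce homogenization and an iodixanol gradient, fixed, and made into libraries with a Scale Biosciences kit for single-cell RNA, with every animal on shared plates. ScaleRna was used by the authors for mapping (mm10) and counting; it splits an ambiguous UMI between genes, so the deposited values are expected counts (92.6% of entries whole), without normalization. The submitters' processing notes name Seurat 4.3.0 and DESeq2 1.38.3. Of 78743 deposited barcodes, 34860 were within the study's limits (UMIs from 800 to 6000, from 300 to 3000 detected genes, mitochondrial share of at most 1%, log genes over log UMIs of at least 0.9), and each animal's top 5% by Scrublet score were then removed (scanpy 1.11.5), since the study removed multiplets with DoubletFinder but whether the deposited matrices precede that step is not given in the sources used here. The study's count of nuclei at this age exceeds all the barcodes in the files used here, before any filter, for a reason not known. The kept nuclei had a median of 3163 UMIs and 1598 genes. TDTOMATO stayed out of library sizes and tests.

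Nuclei were assigned to classes by Poisson posteriors over marker UMIs (at least 0.9), starting from seed nuclei with high marker scores, and 13003 nuclei were left in no class or in classes without a name. A name needed at least 1 of the class's markers among its 10 leading genes and no other class with more, at least 3 markers detected in at least 3% of nuclei, and at least 40% of nuclei in graph clusters mostly of that class (leidenalg 0.10.2, resolution 3). These criteria were set after the classes were seen and before genotypes were compared in them. Counts were summed per animal and class (at least 10 nuclei, 3 animals per genotype), rounded, and fitted with edgeR 4.0.16 (R 4.3.3; TMM, filterByExpr, robust quasi-likelihood) with genotype as the only term, over all genes of the class. The study used DESeq2 with the same term and thresholds; DESeq2 1.42.0 was an alternative, beside other size factors, filters, limits, gates, clusters, terms and leaving out each animal. CPM are from these sums with no filter. P-values are two-sided. Levels of different genes are not on a per-length scale. The rest ran in Python 3.11.15 with pandas 2.3.3, numpy 2.4.6 and scipy 1.17.1.

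On simulated counts for L6 CT-like nuclei (7966 genes), edgeR recovered 98.0% of genes changed 2-fold and 19.8% of those changed 1.3-fold, with 10 false calls; for excitatory nuclei (14455 genes) 98.9% and 33.3%, with 0 false calls.

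The members, marker lists and pathway lists were chosen with earlier results of these data known, among them Smurf1 in L6 CT nuclei, which is therefore not independent support. The study also names SKI and SMURF1 among genes with an age by genotype interaction in deep layer excitatory neurons, from nuclei that include this age. Genes named besides the members are Myt1l, any pathway gene called in a class, otherwise the 2 of each list with the smallest p in excitatory nuclei, and the 2 genes most like each member over classes. Single values of some pathway genes that this rule names are not reported here.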

Additional observations from a re-analysis of the deposited data

Results flagged for a closer look

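The animals of 1 genotype were compared for every member in the broad classes and all nuclei, and for pairs of a member and a class with an unadjusted p under 0.05, 108 groups in all. In 6 of them 1 animal lay further from the rest than Dixon's 95% limit allows, and chance gives about 1 in 20. Het male replicate 1 had both excitatory values: Bmpr1a at 108 CPM, where the other Het animals had 88.4 to 92.4 CPM, and Bmpr1b at 33.3 CPM, where they had 50.8 to 60.1 CPM. In inhibitory nuclei, Bmpr1b was at 25.7 CPM in WT male replicate 1 (other WT animals 3.15 to 11.1 CPM) and at 28.7 CPM in Het female replicate 2 (other Het animals 3.19 to 11.6 CPM), and Skil was at 17.9 CPM in Het male replicate 2 (other Het animals 21.7 to 23.2 CPM). In glial nuclei Smurf2 was at 164 CPM in WT female replicate 1, where the other WT animals had 216 to 243 CPM.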

How the results depend on the processing

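The count of members called by class (1 by edgeR) was also 1 with DESeq2, with DESeq2 size factors, without upper limits on barcodes, without doublet removal and with sex as a term. It was 2 without a filter on low counts (with Smad3 in L6 CT-like nuclei) and 2 with graph clusters (with Bmpr1b in L4/5 IT-like nuclei), 0 with a stricter marker gate, and 0 to 2 when 1 animal was left out. With DESeq2 and no upper limits, an alternative chosen after seeing the data, it was 3. For the broad classes (0) the count was 2 with DESeq2, 3 without the filter, 2 with the added alternative and 0 to 1 when 1 animal was left out. Without the filter these were Smurf1 and Smad3 in excitatory nuclei (adjusted p = 0.0131 and 4.44e-06) and Smad3 in all nuclei (0.0408); the cause was not tested. The pathway count (0) was 1 without the filter and 3 without upper limits, among them Tgfbr1 in L2/3 IT-like and Tgfbr2 in L6 CT-like nuclei, both higher in Het. The difference between classes stayed at 0 with log2(CPM + 10). Apart from plain DESeq2, the share of all genes called under each of these alternatives is not given here. A higher count of members or pathway genes under such an alternative is therefore not added support.

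Smurf1 in L6 CT-like nuclei had a log2 fold change of 0.35 (adjusted p = 0.0716) with the stricter gate and 0.34 to 0.46 (adjusted p = 0.00984 to 0.123) when 1 animal was left out. It kept its call in 13 of 22 alternatives and lost it in 9. The other 27 results for single genes and classes were not called, and over their 575 alternatives 561 kept direction and stayed uncalled, 14 were called and 0 reversed. The class with the highest level was the same for 6 of 10 members with graph clusters and 6 in Het animals alone, and for 7 without upper limits and 9 in WT animals alone.

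Same-numbered animals of a sex did not deviate together (r between -0.325 and 0.044), which gave no sign that the numbers pair the animals. With so few animals, and litters not assigned to them, these values cannot exclude a pairing. The share of all genes called with the replicate number as a block is not given here. With the replicate number as a block, 1 member was called by class and 1 in the broad classes (Smad3 in excitatory nuclei, 0.43, adjusted p = 0.019), and Smurf1 in L6 CT-like nuclei had 0.40 (adjusted p = 0.0311). The simulations recovered few genes changed 1.3-fold, so differences of that size can be missed here, and classes with few nuclei limit this further.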
